A study of Mus musculus with 6 samples.

Results

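The genes described here are the 9 that encode vascular endothelial growth factor (VEGF) ligands, their receptor tyrosine kinases and the neuropilin co-receptors: Vegfa, Vegfb, Vegfc, Pgf, Flt1, Kdr, Flt4, Nrp1 and Nrp2. They were picked by name, each through a probe set whose platform annotation names that gene alone, and all 9 were found among the 19937 genes measured, with 1 such probe set each. The levels come from 6 tumours grown from MASE2 cells in SCID mice, 3 from mice that carried 17β-estradiol (E2) pellets and 3 from mice that carried placebo pellets. MASE2 is 1 line of mouse ascites cells, taken from an E2-treated transgenic mouse (tgCAG-LS-TAg) in which an adenovirus carrying Cre, injected under the ovarian bursa, switched on SV40 large and small T antigens in ovarian surface epithelium. The cells of both groups therefore carry the T antigens and share that earlier hormone exposure. Pellets were placed together with the cell injection, and tumours were taken at loss of wellness, with no day or mouse age in the labels. SCID hosts lack mature T and B lymphocytes but keep their own vessels, macrophages and stroma, so a tumour holds host cells beside MASE2 cells.

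VEGF-A is the main growth factor for blood vessels, and it binds the receptors Flt1 and Kdr. Kdr carries most of the growth and survival signal in endothelial cells, whereas Flt1 binds VEGF-A tightly but signals weakly and so can act as a trap. VEGF-B and placental growth factor bind Flt1 and not Kdr. VEGF-C acts chiefly through Flt4 on lymphatic vessels, and the neuropilins hold VEGFs next to these receptors and also serve as receptors for class 3 semaphorins. In the ovary, the growth of vessels into the corpus luteum depends on VEGF-A and Kdr.

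Each array value is a log2 intensity, and differences are E2 minus placebo, so a difference of 1 log2 unit is a doubling. Greb1 and Pgr, both known oestrogen targets, were higher in all 3 E2 tumours than in any placebo tumour. Esr1, the oestrogen receptor gene looked at beside them, did not pass (1.17 log2, limma adjusted p = 0.475). Its placebo values were 8.92, 9.06 and, in replicate 3, 6.35. The array of placebo replicate 3 stood apart: its Pearson r with the other arrays, across genes, was 0.857 to 0.865, against 0.960 to 0.994 among the rest. All 17 intestinal epithelial markers had their highest value there (Apoa4, an apolipoprotein gene, 11.88 and Tff3, a goblet cell peptide gene, 10.86), and their mean level was 10.47 on that array, against 4.33 to 4.67 in the E2 tumours and 4.47 and 4.51 in the other placebo tumours. The mean level of 7 hepatocyte markers was also highest there, at 5.99, against 4.09 to 4.28 in the E2 tumours and 4.50 and 4.66 in the other placebo tumours. The part of these signals in the VEGF values was not tested, so each is also given without that array. Markers of ovarian surface epithelium and mesothelium were present in both groups, with a mean level of 6.10 to 6.32 in the E2 tumours and 7.25 to 7.56 in the placebo tumours. Placebo replicate 3 had the highest value for 6 of these 14 markers and the lowest for 2. Their median change was -1.24 log2, and -0.88 without that array. The part of the intestinal signal in these values was not tested. Of the 14, 1 rose, the cadherin gene Cdh2 (2.18 log2, limma adjusted p = 0.00317), and 1 fell, the keratin gene Krt7 (-2.36 log2, adjusted p = 0.00445, and 0.0581 without E2 replicate 1). The other 12 had lower means, and 1 rose and 7 fell without placebo replicate 3. T and B cell markers, led by Cd4 (-0.37 log2) and Cd79b (-0.17), had 0 calls in limma and 0 at an unadjusted p under 0.05, with mean levels of 4.03 to 4.20 in the E2 tumours and 4.23 to 4.43 in the placebo tumours, near the lower quartile of all genes on each array (4.22 to 4.39), which stands here for a dim signal because no detection call was used.

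Kdr was the member with the largest difference and the 1 that passed the test on all 6 arrays. It rose 4.19-fold in the E2 tumours. Vegfa and Nrp1, its ligand and co-receptor, were 2.57-fold and 2.35-fold higher in the E2 tumours on average without passing. Flt1, Flt4 and Vegfc were lower in each E2 tumour than in any placebo tumour, also without passing. In all, 1 of the 9 genes rose in limma at an adjusted p under 0.05, beside 1.06% of all genes, and 0 fell, beside 0.326% (1.38% in either direction). At an unadjusted p under 0.05 there were 7 of the 9, beside 16.5% of all genes. The groups did not overlap for 7 of the 9 members, beside 26.3% of all genes, and these were 4 members higher with E2 (14.9% of all genes) and 3 lower (11.4%). With placebo replicate 3 left out, Kdr, Vegfa and Nrp1 rose, which is 3 of 9 beside 6.4% of all genes, and Vegfc and Flt4 fell, which is 2 of 9 beside 5.21% (11.6% in either direction). The median change of the 9 was 0.29 log2, and that of all genes was -0.01. Fewer cells of a type and less RNA per cell cannot be told apart in these whole-tumour samples.

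**Figure D1:**
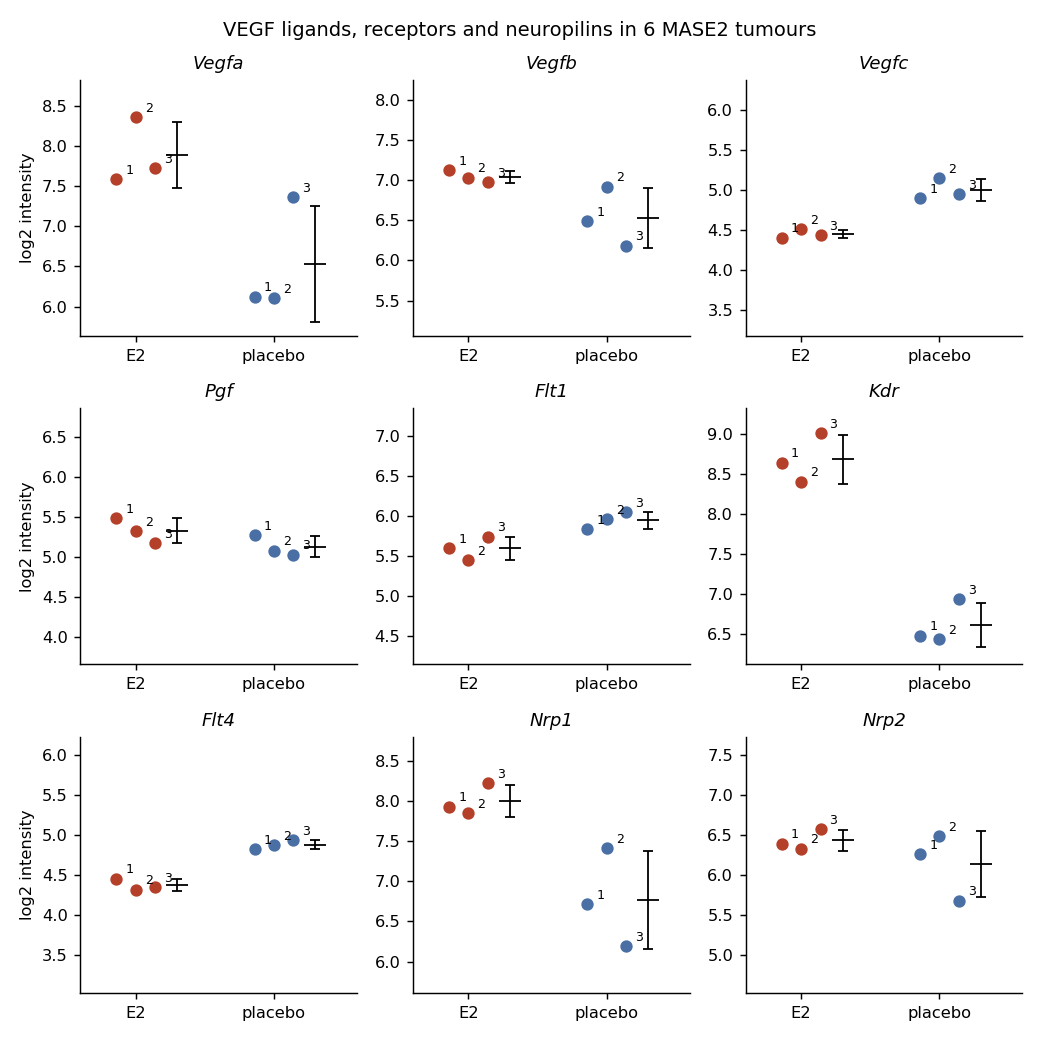
Log2 intensity (vertical axis, with the same span in each panel) of the 9 genes in E2 tumours (left) and placebo tumours (right), with the replicate number beside each point and the mean ± SD (n = 3) as a black bar. Kdr is higher in each E2 tumour than in any placebo tumour (means 8.68 with E2 and 6.61 with placebo), and placebo replicate 3 lies above the other placebo tumours in Vegfa and below them in Nrp2.

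Among the receptors, Kdr rose and its relatives Flt1 and Flt4 had lower means. Kdr measured 8.633, 8.398 and 9.002 in the E2 tumours, against 6.476, 6.430 and 6.930 in the placebo tumours. The lowest E2 tumour was thus well above the highest placebo tumour. The difference was 2.07 log2 (SE 0.21, 95% confidence interval 1.56 to 2.57; limma adjusted p = 0.0136 over all genes), with means of 8.68 ± 0.30 with E2 and 6.61 ± 0.28 with placebo (SD, n = 3 each). It ranked 96 of 19937 genes by size of change. The call was lost without E2 replicate 1, 2 or 3 (limma adjusted p = 0.0994, 0.0596 and 0.0676) or placebo replicate 1 (0.0711). It held without placebo replicate 2 (0.0399) or placebo replicate 3 (0.000253), and the difference stayed between 1.90 and 2.22 log2.

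Flt1, the receptor that can trap VEGF-A, measured 5.60, 5.44 and 5.74 in the E2 tumours, against 5.83, 5.96 and 6.04 in the placebo tumours. The E2 tumours were all lower, by a narrow margin, and the difference of -0.35 log2 (SE 0.11) did not pass (limma adjusted p = 0.206, and 0.145 without placebo replicate 3). Flt4, the receptor for VEGF-C and VEGF-D, measured 4.45, 4.31 and 4.34 in the E2 tumours, against 4.82, 4.86 and 4.93 in the placebo tumours. These values were tight within each group, and those of the E2 tumours lay close to the lower quartile of genes. The Flt4 difference of -0.50 log2 (SE 0.08) missed the threshold on 6 arrays (limma adjusted p = 0.0555) and passed without placebo replicate 3 (-0.47 log2, adjusted p = 0.0161).

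The sequence before the transcription start is shown for Kdr, for Flt1, the other receptor for VEGF-A, which lay on the opposite side, and for Vegfa, the ligand of both. Each line holds the 250 bases before the start from RefSeq, build GRCm38.p6, 5′ to 3′ on the gene's strand (minus for all 3). Kdr is at chr5:75978456-75978705, Flt1 at chr5:147726012-147726261 and the first of 2 annotated Vegfa starts at chr17:46032378-46032627. Capitals mark an oestrogen receptor half-site (GGTCA), a GC box (GGGCGG) or a hypoxia response core (ACGTG or GCGTG), each searched on both strands, and where matches overlap the capitals run on.
Kdr: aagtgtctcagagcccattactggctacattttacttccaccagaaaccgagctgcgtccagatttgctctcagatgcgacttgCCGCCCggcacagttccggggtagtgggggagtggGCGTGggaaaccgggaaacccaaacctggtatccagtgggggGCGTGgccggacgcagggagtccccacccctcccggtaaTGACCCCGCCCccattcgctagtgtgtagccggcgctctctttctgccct
Flt1: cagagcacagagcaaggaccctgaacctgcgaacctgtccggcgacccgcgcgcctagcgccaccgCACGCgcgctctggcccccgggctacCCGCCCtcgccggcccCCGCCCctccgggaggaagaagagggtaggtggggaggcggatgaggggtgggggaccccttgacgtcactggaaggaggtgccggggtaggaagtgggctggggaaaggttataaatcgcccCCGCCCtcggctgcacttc
Vegfa: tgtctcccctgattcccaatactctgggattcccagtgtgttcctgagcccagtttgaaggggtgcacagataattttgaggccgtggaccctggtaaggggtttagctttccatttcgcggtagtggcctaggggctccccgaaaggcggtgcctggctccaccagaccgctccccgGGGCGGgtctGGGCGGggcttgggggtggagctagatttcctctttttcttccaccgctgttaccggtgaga
The Kdr window held 1 half-site, 50 bases before the start and next to a GC box, and 2 hypoxia cores and 2 GC boxes in all. The Flt1 window held 0 half-sites, 1 hypoxia core and 3 GC boxes, and this Vegfa window 0 half-sites, 0 hypoxia cores and 2 GC boxes. The window of the other Vegfa start, at chr17:46025164-46025413, lies downstream of the first start and so inside the gene. It held 0 half-sites, 2 hypoxia cores and 1 GC box. Among the members not printed, Flt4, which had a lower mean with E2, held 2 half-sites, 62 and 5 bases before the start. Vegfb held 2, Nrp1 held 1, and Pgf held 2 before 1 of its 2 starts and 0 before the other. Vegfc and Nrp2 held 0. A half-site was found in 35.2% of 32851 promoter windows of the same length, a hypoxia core in 38.6% and a GC box in 32.7%. A full oestrogen response element, GGTCA and TGACC with 3 bases between them, was found in 0.0639% of all windows and in 0 of the 11 windows of the 9 genes. These are matches of letters and show no binding.

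Of the ligands, Vegfa had the largest difference and Vegfc lay on the opposite side. Vegfa measured 7.59, 8.36 and 7.73 in the E2 tumours, against 6.12, 6.10 and 7.37 in the placebo tumours. The placebo tumours split, with replicate 3 a little below the E2 tumours and higher by 1.25 log2 than the average of the other 2. On 6 arrays the difference of 1.36 log2 (SE 0.40, 95% confidence interval 0.39 to 2.33) did not pass (limma adjusted p = 0.179). Without placebo replicate 3 Vegfa rose 3.44-fold (1.78 log2, SE 0.21, limma adjusted p = 0.00184), a call that rests on leaving that array out.

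Vegfc, the lymphatic growth factor, measured 4.41, 4.52 and 4.44 in the E2 tumours, against 4.90, 5.15 and 4.95 in the placebo tumours. All E2 tumours were lower, and they lay near the lower quartile of genes. The difference was -0.55 log2 (SE 0.10, limma adjusted p = 0.0663), and it passed without placebo replicate 3 (-0.57 log2, adjusted p = 0.0136). Vegfd, the closest relative of Vegfc and no member here, was looked at after the values were known. It measured 5.09, 4.72 and 5.15 in the E2 tumours, against 6.02, 6.86 and 5.44 in the placebo tumours. Again the E2 tumours were all lower, and the difference of -1.12 log2 did not pass on 6 arrays (limma adjusted p = 0.213) and did without placebo replicate 3 (-1.45 log2, adjusted p = 0.00765).

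The ligands that bind Flt1 and not Kdr differed less than Vegfa. Vegfb measured 7.13, 7.03 and 6.98 in the E2 tumours, against 6.49, 6.92 and 6.19 in the placebo tumours, so the groups came close without overlapping. Its difference of 0.52 log2 (95% confidence interval 0.05 to 0.98) did not pass with or without placebo replicate 3 (limma adjusted p = 0.262 and 0.165). Pgf, which encodes placental growth factor, measured 5.49, 5.32 and 5.18 in the E2 tumours, against 5.27, 5.08 and 5.03 in the placebo tumours, so the groups overlapped. Its difference was 0.20 log2 with a 95% confidence interval of -0.09 to 0.49 (limma adjusted p = 0.46), and 0.15 log2 without placebo replicate 3.

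Of the neuropilins, the groups did not overlap for Nrp1 and did for Nrp2. Nrp1, which assists Kdr, measured 7.93, 7.85 and 8.23 in the E2 tumours, against 6.72, 7.41 and 6.19 in the placebo tumours. All E2 tumours were higher, and the placebo tumours were spread over more than 1 log2 unit with replicate 3 lowest. The difference of 1.23 log2 (SE 0.31, 95% confidence interval 0.47 to 1.99) did not pass on 6 arrays (limma adjusted p = 0.135), and it passed without placebo replicate 3 (0.94 log2, adjusted p = 0.0238). Nrp2, a co-receptor of Flt4, measured 6.39, 6.33 and 6.57 in the E2 tumours, against 6.25, 6.48 and 5.68 in the placebo tumours. Its difference was 0.29 log2 with a 95% confidence interval of -0.23 to 0.82 (limma adjusted p = 0.537), and 0.06 log2 without placebo replicate 3.

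**Figure D2:**
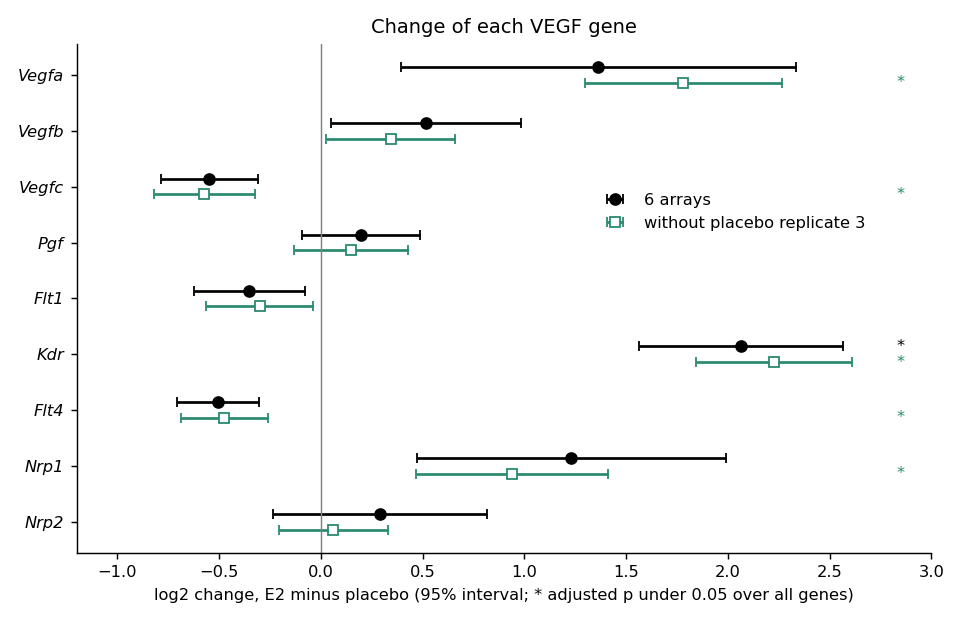
Log2 change of each gene, E2 minus placebo (horizontal axis), with its 95% confidence interval from limma, on 6 arrays (filled circles) and without placebo replicate 3 (open squares). Asterisks mark an adjusted p under 0.05 over all genes, which on 6 arrays belongs to Kdr (2.07) and without that array to Vegfa, Vegfc, Kdr, Flt4 and Nrp1.

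The change of Kdr was set against that of each other member, 8 differences in all, through the gap between both genes on each array. Kdr was taken because it had the largest change, so gaps wider with E2 follow in part from that choice. Against Flt1 the gap averaged 3.08 ± 0.16 log2 with E2 and 0.67 ± 0.21 with placebo (SD, n = 3 each), so the changes differed by 2.42 log2. Against Flt4 the changes differed by 2.57 log2 and against Vegfc by 2.61. These 3, and those against Vegfb, Pgf and Nrp2, each gave p = 0.10 in an exact two-sided permutation test over arrays, the smallest value that 3 against 3 allows, and an adjusted exact p of 0.133 over the 8, so this test cannot reach the threshold with 3 against 3. Against Vegfa and Nrp1 the changes differed by 0.70 and 0.83 log2, the gaps overlapped between the groups, and the exact permutation p was 0.30 before and after adjustment.

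Markers of endothelial cells, where Kdr, Flt1 and Flt4 are usually found, mostly had lower means with E2 while Kdr was higher. Of 22 such markers, 19 had lower means in the E2 tumours (48.3% of all genes had higher means with E2), 1 rose (Ramp2) and 0 fell in limma, with 11 at an unadjusted p under 0.05. The groups did not overlap for 12 that were lower with E2, beside 11.4% of all genes. The list median was -0.32 log2, and without placebo replicate 3 there were 1 rise and 4 falls and a median of -0.24. Cdh5, the adhesion protein of endothelial junctions, measured 5.66, 5.19 and 5.71 in the E2 tumours, against 6.19, 6.24 and 6.03 in the placebo tumours (limma adjusted p = 0.137). Pecam1, another endothelial surface protein, measured 5.78, 5.48 and 6.02 in the E2 tumours, against 6.25, 6.48 and 6.49 in the placebo tumours (limma adjusted p = 0.13). Both were lower in each E2 tumour than in any placebo tumour. Ramp2, which forms an adrenomedullin receptor with a partner, measured 7.08, 6.99 and 7.01 in the E2 tumours, against 6.18, 6.25 and 6.10 in the placebo tumours, a rise of 0.85 log2 (limma adjusted p = 0.0121). That call held without placebo replicate 2 or 3 and was lost without any 1 of the other arrays. The summed linear intensity of the 22 markers was 910 to 1049 in the E2 tumours and 1104 to 1213 in the placebo tumours.

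Each member was also taken relative to the mean of these markers on the same array, which shifts every gene up by 0.27 log2. Kdr stood above that mean by 3.27, 3.18 and 3.61 in the E2 tumours, against 0.95, 0.81 and 1.30 in the placebo tumours. The relative change of Kdr was 2.33 log2 (SE 0.18, limma adjusted p = 0.00263). Nrp1 also passed (1.497 log2, adjusted p = 0.0355), and Vegfa did not (1.63 log2, adjusted p = 0.0526). These 2 rises among 9 members stand beside 9.07% of all genes, and the 0 falls beside 0.381% (9.45% in either direction). Flt1 showed a relative change of -0.08 log2 with a 95% confidence interval of -0.31 to 0.14 (adjusted p = 0.503), and Flt4 of -0.24 (adjusted p = 0.132). Without placebo replicate 3, Kdr, Nrp1, Vegfa and Vegfb rose on this scale, beside 26% of all genes, and 0 members fell, beside 3.23% (29.2% in either direction). The same marker values enter every gene of this fit, so its p-values are not independent of one another.

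**Figure D3:**
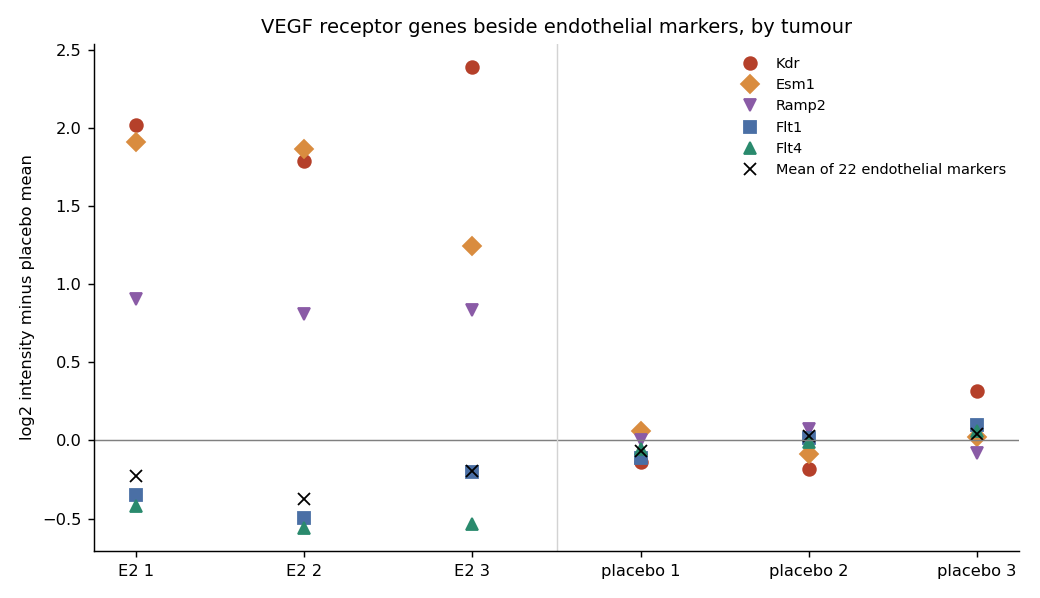
Log2 intensity minus the mean of the placebo tumours (vertical axis) on each of the 6 arrays (horizontal axis, E2 tumours left) for Kdr, Esm1, Ramp2, Flt1, Flt4 and the mean of 22 endothelial markers. Kdr, Esm1 and Ramp2 lie above 0 on the 3 E2 arrays, and Flt1, Flt4 and the marker mean lie below 0 on them.

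Of 20 receptor partners and regulators, 0 rose and 0 fell in limma on 6 arrays (9 had an unadjusted p under 0.05), with a median of -0.11 log2, and 3 rose and 4 fell without placebo replicate 3. Calls on 6 arrays in this and every other list stand beside 1.38% of all genes, which for a list of this length is less than 1 gene. List counts without placebo replicate 3 stand beside 11.6% of all genes, 6.4% higher and 5.21% lower. Those at an unadjusted p under 0.05 stand beside 16.5%. Adamts3, a protease in the activation of VEGF-C, measured 6.62, 6.70 and 7.22 in the E2 tumours, against 4.96, 5.86 and 5.11 in the placebo tumours. The E2 tumours were all higher, and the difference of 1.54 log2 missed the threshold (limma adjusted p = 0.0694, and 0.0137 without placebo replicate 3). Itgb3, an integrin subunit that can pair with Kdr, differed by 0.42 log2 (limma adjusted p = 0.06, and 0.0177 without that array).

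Downstream of the receptors, 1 of 35 signal transduction genes rose and 0 fell, with a median of -0.09 log2. Map2k1, a kinase that activates the ERK enzymes, measured 9.13, 9.27 and 9.22 in the E2 tumours, against 7.66, 7.69 and 8.25 in the placebo tumours, a rise of 1.34 log2 (limma adjusted p = 0.0301) whose call was lost on leaving out any 1 array but placebo replicate 3. Without placebo replicate 3, 1 rose and 3 fell. Of 15 genes known from tip and stalk cells of growing vessels, 1 rose and 0 fell (median -0.14 log2), or 1 rose and 4 fell without that array. The riser was Esm1, an endothelial proteoglycan known to be induced by VEGF-A, which measured 6.48, 6.43 and 5.81 in the E2 tumours, against 4.63, 4.49 and 4.59 in the placebo tumours. All E2 tumours were higher, by 1.67 log2 on average (SE 0.19, limma adjusted p = 0.0221), a call that held without E2 replicate 3 or placebo replicate 3 and was lost without any 1 of the other arrays. Dll4, the Notch ligand of tip cells and another known VEGF-A target, differed by -0.26 log2 and did not pass (adjusted p = 0.217).

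The semaphorins and plexins that use the neuropilins mostly had lower means: 9 of 12 were lower with E2, and 0 rose and 0 fell in limma on 6 arrays (median -0.27 log2, with 3 at an unadjusted p under 0.05). With placebo replicate 3 left out, 4 fell and 0 rose. Sema3c, a secreted semaphorin, measured 5.28, 5.25 and 5.66 in the E2 tumours, against 6.25, 7.48 and 6.09 in the placebo tumours. Each E2 tumour was lower than any placebo tumour (-1.21 log2, limma adjusted p = 0.202), and the difference was -0.78 log2 without placebo replicate 2 and -1.47 without placebo replicate 3 (adjusted p = 0.135 and 0.0232). Plxna2, a plexin that signals for neuropilin-bound semaphorins, had a difference of -0.87 log2 on 6 arrays, which leaving out placebo replicate 3 brought to -0.51 (limma adjusted p = 0.256 and 0.0459).

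Upstream of Vegfa, the hypoxia-inducible factor pathway had 0 rises and 0 falls among 11 genes in limma on 6 arrays (median -0.07 log2, with 4 at an unadjusted p under 0.05). Without placebo replicate 3 Hif1a rose and Epas1 fell. Hif1a, an oxygen-regulated factor that activates Vegfa, measured 9.21, 9.04 and 9.10 in the E2 tumours, against 7.99, 8.01 and 8.98 in the placebo tumours (0.79 log2, limma adjusted p = 0.247, and 0.000475 without that array). Placebo replicate 3 was thus near the E2 tumours in Hif1a, as it was in Vegfa. Epas1, a related factor abundant in endothelial cells, differed by -0.90 log2 (limma adjusted p = 0.0926, and 0.0174 without that array), and Hif3a, another relative, by -0.41 log2 (adjusted p = 0.12).

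Among 18 hypoxia targets 3 rose and 0 fell (median 0.49 log2), and 8 rose and 1 fell without placebo replicate 3. Adm, which encodes the vessel-acting peptide adrenomedullin, measured 7.76, 8.57 and 7.74 in the E2 tumours, against 5.41, 5.14 and 5.99 in the placebo tumours, a rise of 2.51 log2 (limma adjusted p = 0.0268). Aldoc, a glycolytic aldolase, rose by 1.30 log2 and Angptl4, a secreted regulator of lipoprotein lipase, by 0.80 (limma adjusted p = 0.0266 and 0.0468). All 3 calls were lost on leaving out any 1 array but placebo replicate 3. The list was not uniform, since Car9, a carbonic anhydrase and a standard hypoxia marker, was lower in each E2 tumour than in any placebo tumour (-1.13 log2, limma adjusted p = 0.266, and -0.65 log2 with adjusted p = 0.0493 without placebo replicate 3). The mean level of the 18 targets was 7.57 to 7.93 in the E2 tumours, against 7.09 and 7.11 in placebo replicates 1 and 2 and 7.64 in placebo replicate 3.

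**Figure D4:**
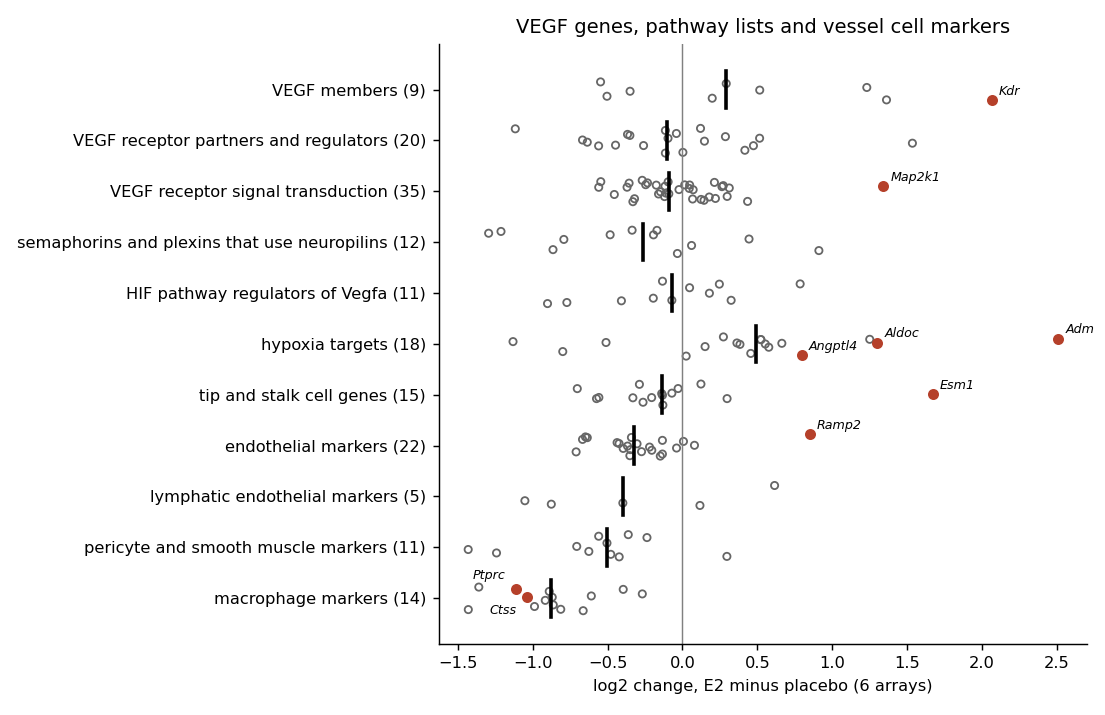
Log2 change, E2 minus placebo on 6 arrays (horizontal axis), of every measured gene in each list, with the number of genes in brackets. Filled points have an adjusted p under 0.05 over all genes and are named, open points do not, and the black bar is the list median, which is -0.88 for macrophage markers and 0.49 for hypoxia targets.

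Of 11 pericyte and smooth muscle markers 10 had lower means with E2, and 0 rose and 0 fell in limma on 6 arrays (median -0.50 log2, with 2 at an unadjusted p under 0.05). Leaving out placebo replicate 3, 4 of them fell. Rgs5, a pericyte marker, differed by -1.24 log2 and Notch3, a mural cell receptor, by -0.63 (limma adjusted p = 0.114 and 0.193). Of 14 macrophage markers, from cells that can supply VEGFs, 14 had lower means with E2 (against 48.3% of all genes with higher means) and 2 fell, the protease gene Ctss (-1.04 log2, limma adjusted p = 0.0324) and the leukocyte surface gene Ptprc (-1.11 log2, adjusted p = 0.0388). Both calls were lost on leaving out any 1 array but placebo replicate 3. Leaving out placebo replicate 3, 12 fell, and the mean level of the list was 6.43 to 6.83 in the E2 tumours and 6.93 to 7.86 in the placebo tumours on all arrays.

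Of 5 lymphatic endothelial markers 0 rose and 0 fell in limma on 6 arrays (1 had an unadjusted p under 0.05). Pdpn, which mesothelial and stromal cells also make, differed by -1.05 log2 (limma adjusted p = 0.0961, and 0.000783 without placebo replicate 3). Mmrn1, an extracellular matrix protein gene, differed by -0.88 log2 on 6 arrays and -0.26 without placebo replicate 3 (limma adjusted p = 0.45 and 0.174), and its signal was dim on the other 5 arrays. The list median was -0.40 log2, and -0.04 without that array. Prox1, the transcription factor that defines lymphatic endothelium, was 4.45 to 4.58 in the E2 tumours and 4.27 to 4.47 in the placebo tumours, near the lower quartile of genes. Of 12 granulosa and steroidogenic cell markers 6 rose and 0 fell, namely the inhibin subunit genes Inha (3.81 log2) and Inhba (1.47), the steroid enzyme genes Cyp11a1 (4.26) and Hsd3b1 (at least 2.03-fold, since its placebo values were dim), and the transcription factor genes Nr5a1 (2.45) and Gata4 (1.61). Their limma adjusted p ran from 0.000223 (Inha) to 0.0337 (Inhba). Inhba lost its call on leaving out any 1 array but placebo replicate 3, and Gata4, Hsd3b1 and Nr5a1 lost theirs in at least 1 such fit. Of 7 adipocyte markers, 1 fell (Adipoq, at least 1.501-fold lower, since its E2 values were dim), 6 were lower with no overlap (11.4% of all genes) and 6 fell without placebo replicate 3. The Adipoq call (limma adjusted p = 0.046) was lost on leaving out any 1 array but placebo replicate 3. Of 7 hepatocyte markers 0 passed in limma and 1 had an unadjusted p under 0.05, with differences of -1.88 log2 for Cyp2e1 and -0.26 for Ahsg, and 1 fell without placebo replicate 3. The part of these cell markers in the VEGF values was not tested.

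The genes whose profile over the 6 arrays was most like that of Kdr, by the root mean square difference of gene-centred log2 values, were B4galt5 (0.159 log2), Hsd3b1 (0.176), Prune2 (0.204), Acsbg1 (0.227) and Wfdc6a (0.244). Each of these rose in limma on 6 arrays. That rise, and an order of arrays like that of Kdr, follow from picking genes by their likeness to Kdr. B4galt5, a galactosyltransferase, measured 8.30, 8.14 and 8.55 in the E2 tumours, against 6.45, 6.29 and 6.91 in the placebo tumours. Like Kdr it had E2 replicate 3 highest and placebo replicate 3 above the other placebo tumours. Hsd3b1, a steroid-synthesis enzyme, measured 5.39, 5.13 and 5.57 in the E2 tumours, against 3.34, 3.58 and 3.74 in the placebo tumours, with the 3 placebo tumours under the lower quartile of all genes. The placebo values of Wfdc6a were likewise under it, so the distances of these 2 genes from Kdr rest in part on dim values. Over the 5 arrays without placebo replicate 3 the nearest were Slc30a4, a zinc transporter gene (0.0548), Prune2 (0.106), Rasd1 (0.121), the integrin gene Itga2 (0.131) and Wfdc6a (0.134), so 2 of the 5 genes were in both rankings. Slc30a4, Rasd1 and Itga2 did not pass on 6 arrays (limma adjusted p = 0.133, 0.0745 and 0.113).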

How the data were processed

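RNA from each of 6 tumours was labelled with biotin as whole-transcript sense target and hybridised to 1 array, per the labels' protocols. The values the authors deposited are log2 intensities, and per the submitters' processing notes RMA produced them. The software version and genome build were not stated in the sources at hand. RMA equalises the arrays and compresses changes near background. The series' design text calls the 3 tumours of a group biological replicates, and so few arrays limit precision.

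Of 34760 probe sets, 21640 had 1 gene symbol, 1321 several and 11799 none in the platform annotation. The probe set with the highest mean stood for a gene, and no dim gene was removed. E2 and placebo were compared with limma 3.58.1 in R 4.3.3 (linear model, empirical Bayes, two-sided), with p adjusted by Benjamini and Hochberg over 19937 genes and a threshold of 0.05. A simulation for these 19937 genes gave 200 of them a change and drew independent normal noise, with 1 SD per gene for both groups. The test found 65% of the changes of 1 log2 unit and 89% of those of 2, and made 9 false calls. The simulation held no outlying array like placebo replicate 3, so these figures need not hold for the real arrays.

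The members and 16 gene lists were chosen with earlier results of these data known. The lists hold 238 symbols, of which 224 were measured. Named were all members and, from each list described, up to 6 called genes or, where 0 were called, the 2 of smallest p. Vegfd, Prox1, Cdh5, Pecam1, Dll4, Hif1a and Car9 were named after their values were seen, and Greb1, Pgr and Esr1 to check the labels. Promoter windows were found for all 9 members. Alternatives were leaving out each array, the replicate number as a block, 2 filters on dim genes, probe sets averaged or singly, 2 normalizations, 2 variance models, 2 thresholds, and values relative to endothelial markers or to Kdr. Same-numbered arrays did not deviate together (r across genes of -0.18 to -0.03), so the numbers were not taken as pairs.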

Additional observations from a re-analysis of the deposited data

How the results depend on the processing

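No VEGF gene changed direction under any alternative run; the filter at the median signal removed Vegfc, Pgf and Flt4 and gave them no value. Leaving out each array in turn, the log2 change ranged from 1.13 to 1.78 for Vegfa, 0.34 to 0.71 for Vegfb, -0.60 to -0.47 for Vegfc, 0.12 to 0.27 for Pgf, -0.42 to -0.28 for Flt1, 1.90 to 2.22 for Kdr, -0.55 to -0.47 for Flt4, 0.94 to 1.55 for Nrp1 and 0.06 to 0.46 for Nrp2. In the same fits 0 to 3 members rose and 0 to 2 fell, 31 to 1276 of all genes rose and 0 to 1039 fell (211 and 65 on 6 arrays), and 4 to 24 list genes rose and 0 to 50 fell (13 and 4 on 6 arrays). The highest counts came without placebo replicate 3. Map2k1, Adm, Aldoc, Angptl4, Ctss, Ptprc, Inhba and Adipoq kept their call in 1 of these 6 fits, the one without placebo replicate 3. Gata4 kept it in 3, Hsd3b1 in 4, Nr5a1 and Krt7 in 5, and Cdh2, Inha and Cyp11a1 in 6. Esm1 kept it there and without E2 replicate 3, and Ramp2 there and without placebo replicate 2. With the replicate number as a block, Kdr kept its change of 2.07 log2 but not its call (limma adjusted p = 0.0514), and 0 members rose. In that fit 10 genes rose and 0 fell in all, and 2 list genes rose and 0 fell. The labels state no such pairing, and the pairing check was too weak to decide on it. Array weights gave 1026 rises and 760 falls, 22 and 43 in the lists and 3 and 2 among the members, with calls for Vegfa (1.74), Vegfc (-0.56), Flt4 (-0.47) and Nrp1 (0.97). Median centring gave 342 rises. A trended and robust variance called 1 member lower, Flt4 (-0.50), and Angptl4 lost its call there (limma adjusted p = 0.0661). With quantile normalization repeated, Angptl4, Inhba and Adipoq lost theirs (limma adjusted p = 0.0861, 0.0532 and 0.0507). An adjusted p under 0.10 gave 543 rises and 193 falls, 11 list genes lower and 2 members lower, Vegfc (-0.55) and Flt4 (-0.50). An unadjusted p under 0.05 with a 1.5-fold change gave 769 rises and 455 falls, 30 list genes lower and 3 members higher, adding Vegfa (1.36) and Nrp1 (1.23). Relative to endothelial markers Nrp1 passed (1.497), and without placebo replicate 3 so did Vegfa (2.03), Vegfb (0.59) and Nrp1 (1.18). The difference between the change of Kdr and that of the others ranged, without each array, from 0.44 to 1.08 for Vegfa, 1.26 to 1.88 for Vegfb, 2.44 to 2.80 for Vegfc, 1.63 to 2.08 for Pgf, 2.32 to 2.53 for Flt1, 2.39 to 2.70 for Flt4, 0.42 to 1.29 for Nrp1 and 1.51 to 2.16 for Nrp2. In limma on values minus Kdr all 8 differences passed (0.70 for Vegfa, 1.55 for Vegfb, 2.61 for Vegfc, 1.87 for Pgf, 2.42 for Flt1, 2.57 for Flt4, 0.83 for Nrp1 and 1.77 for Nrp2), but the same Kdr values enter every gene there, so those p-values are too small and are not used. The causes were not tested. Genes near the lower quartile of signal, such as Flt4 and Vegfc, have little room to show a fall.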
